A study of Mus musculus with 20 samples.

Results

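Hamp, Hamp2, Bmp6, Tfr2, Tfrc, Trf, Slc39a14, Slc40a1, Fth1 and Ftl1 are genes that move, store or regulate iron in the liver. They were taken by symbol from a table of 54532 gene entries, and all 10 were found once and passed the filter on low values. The table holds polyadenylated liver RNA from 20 mouse libraries in 4 groups of 5. BDL_KO livers lacked STING and had their bile duct ligated for 7 days, BDL_Wt livers were wild type and ligated for 7 days, Sham_KO livers lacked STING and had sham surgery, and Sham_Wt livers were wild type with sham surgery. STING relays the sensing of cytosolic DNA to type I interferon genes, and ligation of the bile duct blocks bile outflow and causes cholestasis. The labels give neither strain, age, sex nor the deleted part of the STING gene for these groups, and nothing says that each library came from a different animal.

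Hepcidin, the peptide made from Hamp, is released by hepatocytes and sends the iron exporter ferroportin, made from Slc40a1, to degradation, so that less iron leaves macrophages, enterocytes and hepatocytes. Hamp transcription is raised by BMP6 and BMP2 from liver endothelial cells through SMAD proteins and by interleukin 6 through STAT3. Ferritin, transferrin receptor 1 and ferroportin are also set after transcription, since iron regulatory proteins bind stem-loops called iron-responsive elements in their mRNAs. They block translation when the element lies before the coding sequence and protect the mRNA from decay when it lies after it.

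The upstream sequences of Hamp and Hamp2 are shown because both signals that act on hepcidin meet there and this gene pair differs in the letters of the BMP response core. The sequences are the 250 bases before each start site in RefSeq (GRCm38.p6), written 5′ to 3′ on the minus strand of chromosome 7, with the BMP response core and the STAT3 site in capitals.
Hamp: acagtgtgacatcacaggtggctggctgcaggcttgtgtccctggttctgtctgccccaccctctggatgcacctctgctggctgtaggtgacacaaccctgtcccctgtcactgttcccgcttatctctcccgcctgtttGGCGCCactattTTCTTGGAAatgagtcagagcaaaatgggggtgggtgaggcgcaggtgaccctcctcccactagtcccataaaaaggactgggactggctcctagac
Hamp2: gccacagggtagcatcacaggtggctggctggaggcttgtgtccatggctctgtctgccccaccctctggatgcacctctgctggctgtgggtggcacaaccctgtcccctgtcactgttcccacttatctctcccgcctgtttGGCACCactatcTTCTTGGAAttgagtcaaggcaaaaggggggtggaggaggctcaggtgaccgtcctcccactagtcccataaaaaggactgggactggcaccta
The Hamp window is chr7:30944030-30944279 and the Hamp2 window is chr7:30924182-30924431. In GENCODE M21 the Hamp2 gene reaches farther upstream, to 30924681, so the Hamp2 window lies within that gene. The Hamp2 positions below hold for the RefSeq start site alone. Of 247 aligned bases 227 (91.9%) were identical. Hamp held the core GGCGCC at -109 to -104 from the start site and the STAT3 site TTCTTGGAA at -97 to -89. Hamp2 held the same STAT3 letters at -94 to -86, and the place of the core read GGCACC at -106 to -101, a G4A difference counted from 1 at the 5′ end of the core in Hamp. Hamp2 also held GGCACC at -8 to -3. These matches did not overlap one another. Among 32851 RefSeq windows of the same length, GGCGCC (the same on both strands) was in 9.586%, GGCACC in 12.873% and TTCTTGGAA in 0.365%, counting both strands. A match describes letters and does not show that a factor binds.

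The iron-responsive elements of Fth1, Ftl1, Slc40a1 and Tfrc are shown because through them iron can set these mRNAs after transcription, at the RNA or at the protein step. The search took GENCODE M21 transcripts (GRCm38) for a C, 5 stem bases, the loop CAGTG with A, C or T after it, and 5 bases that pair with the first 5, on the transcript strand. The loop is in capitals and each element is printed with its flanks as 27 bases.
Fth1, 5′ UTR: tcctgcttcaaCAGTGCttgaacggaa
Ftl1, 5′ UTR: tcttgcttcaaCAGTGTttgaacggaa
Slc40a1, 5′ UTR: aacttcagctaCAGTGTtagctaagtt
Tfrc, 3′ UTR, the first of 4: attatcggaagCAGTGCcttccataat
Tfrc, 3′ UTR, the last of 4: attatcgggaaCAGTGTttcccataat
These lie at chr19:9982733-9982759 on the plus strand (Fth1), chr7:45459780-45459806 on the minus strand (Ftl1), chr1:45925466-45925492 on the minus strand (Slc40a1), and chr16:32631220-32631246 and chr16:32631711-32631737 on the plus strand (Tfrc). Of 58797 protein-coding transcripts, 424 (0.721%) held such an element. Elements were listed for these genes alone, so nothing is said of the other members. The strict pattern can miss elements, also in Tfrc. Polyadenylated RNA measures the mRNA of these genes, not how much of it is translated.

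Depth lay between 14.94 and 20.90 M gene-assigned fragments a library, and 1 fragment on 1 kilobase was worth 0.0467 to 0.0734 FPKM. Tmem173, the gene of STING, averaged 1.42 FPKM in BDL_KO and 3.64 in BDL_Wt livers without overlap (log2 fold change -1.17, limma, adjusted p = 0.00444). The gap was small, since BDL_KO_2370 had 2.57 FPKM and BDL_Wt_2235 had 2.60 FPKM. That BDL_KO library also exceeded every Sham_Wt library, at 2.34 FPKM or less. Across the group, Tmem173 in BDL_KO reached from 0.638 to 2.57 FPKM. Tmem173 averaged 0.743 FPKM in Sham_KO and 1.71 in Sham_Wt livers with overlap (-0.80, adjusted p = 0.0779), so its mRNA was still present in the knockouts and the sham difference was not called. Every group mixed libraries with Xist and libraries with Y-linked transcripts, 10 of each kind in all. Libraries with Xist numbered 3 in BDL_KO, 2 in BDL_Wt, 2 in Sham_KO and 3 in Sham_Wt. Those with Y-linked transcripts numbered 2, 3, 3 and 2 in the same order. The ligated libraries BDL_KO_2248 and BDL_KO_2359 had summed cholangiocyte markers of 63.0 and 83.0 FPKM, against 332 to 561 FPKM in the other BDL_KO libraries and 223 to 610 FPKM in BDL_Wt. Spp1 made up most of this sum, averaging 262 FPKM in BDL_KO and 415 in BDL_Wt livers. Each other marker averaged at most 7.91 FPKM there. Against the other BDL_KO libraries, the pair also had lower stellate sums (16.1 and 20.5 against 83.2 to 105 FPKM). The same held for Kupffer cell markers (169 and 243 against 461 to 698 FPKM). Monocyte and neutrophil markers summed to 38.0 and 83.5 FPKM, against 149 to 210 FPKM. BDL_KO_2371 had 1307 FPKM of summed red cell markers, against 61.7 to 369 FPKM in the other 19 libraries. Hepatocyte markers summed to 31729 to 55109 FPKM in BDL_KO, 22986 to 33293 FPKM in BDL_Wt, 49365 to 61773 FPKM in Sham_KO and 46053 to 62861 FPKM in Sham_Wt livers. In bulk RNA, fewer cells of a type and less RNA per cell cannot be told apart.

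Each fold change that follows is on the log2 scale, as limma's difference between group means of log2(FPKM + 0.5) ± SE. The p-values are adjusted over 14059 genes by the Benjamini-Hochberg method. Each group has n = 5 libraries, except in fits that leave out libraries. Fits on libraries with Xist alone or with Y-linked transcripts alone have only 2 or 3 libraries a group. A gene is called where the adjusted p is under 0.05. The comparisons share groups (Sham_Wt serves ligation and knockout alike), so they are not independent of one another.

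Ligation changed 3 of the 10 genes in wild-type livers, with Tfrc and Trf higher and Hamp2 lower, where 35.6% of all genes were called, 18.1% higher and 17.5% lower. In knockout livers ligation changed 2 of the 10, Slc40a1 and Trf, both higher, where 25.1% were called, 12.3% higher. Loss of STING without ligation changed 2 of the 10, with Tfrc higher and Slc40a1 lower, where 2.97% were called, 1.31% higher and 1.66% lower. Between BDL_KO and BDL_Wt livers limma called 0 of the 10, where 8.83% were called, with 2 of 10 at an unadjusted p under 0.05. No member passed the test of whether ligation acted differently in the 2 genotypes, where 0.377% of genes were called, and the lowest adjusted p was 0.317, with 2 of 10 at an unadjusted p under 0.05. For both of these comparisons, voom on recovered fragments also called 0 of the 10. In both ligation comparisons the share of members called lay near that of all genes and is no result about iron genes. Groups did not overlap for 4 of the 10 in BDL_Wt against Sham_Wt, 2 higher and 2 lower, where this held for 31.8% of genes, 16.6% higher and 15.1% lower, for 1 of 10 in BDL_KO against Sham_KO (11.6% of genes) and for 2 of 10 in Sham_KO against Sham_Wt (8.07% of genes). The median log2 fold change of the members was 0.08, 0.06, 0.07 and 0.27 in these 4 pairwise comparisons, beside -0.02, -0.01, 0.01 and 0.01 over all tested genes.

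**Figure D1:**
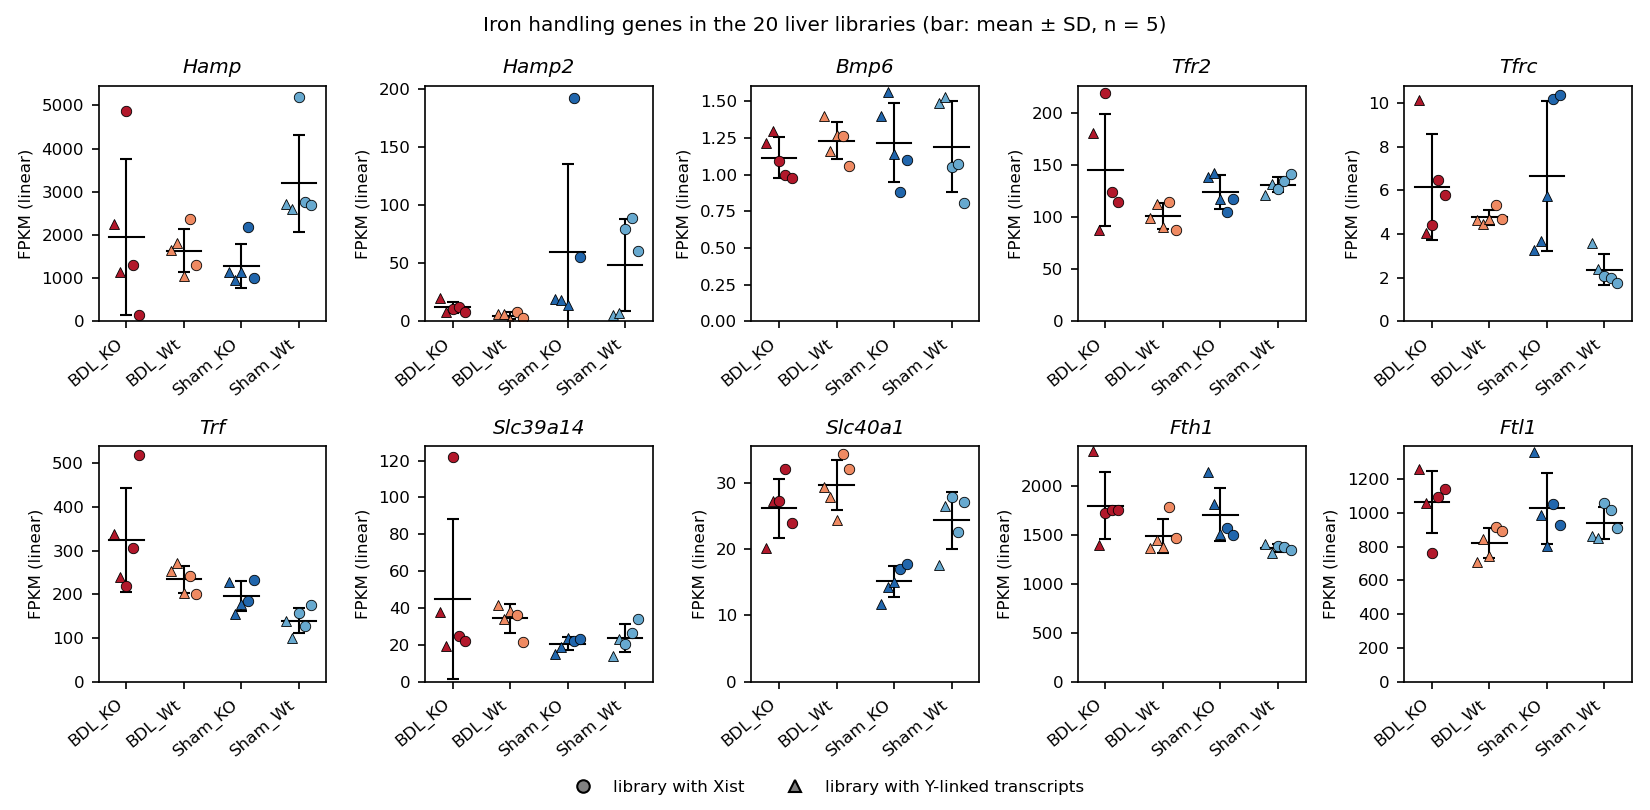
FPKM of the 10 genes on linear axes from 0, 1 point per library (circles, libraries with Xist; triangles, libraries with Y-linked transcripts), with bars for mean ± SD of 5 libraries, cut at 0 where the SD exceeds the mean. Sham_Wt stands above BDL_Wt and Sham_KO for Hamp, Sham_KO stands low for Slc40a1, and Hamp2 in the sham groups splits by symbol shape.

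**Figure D2:**
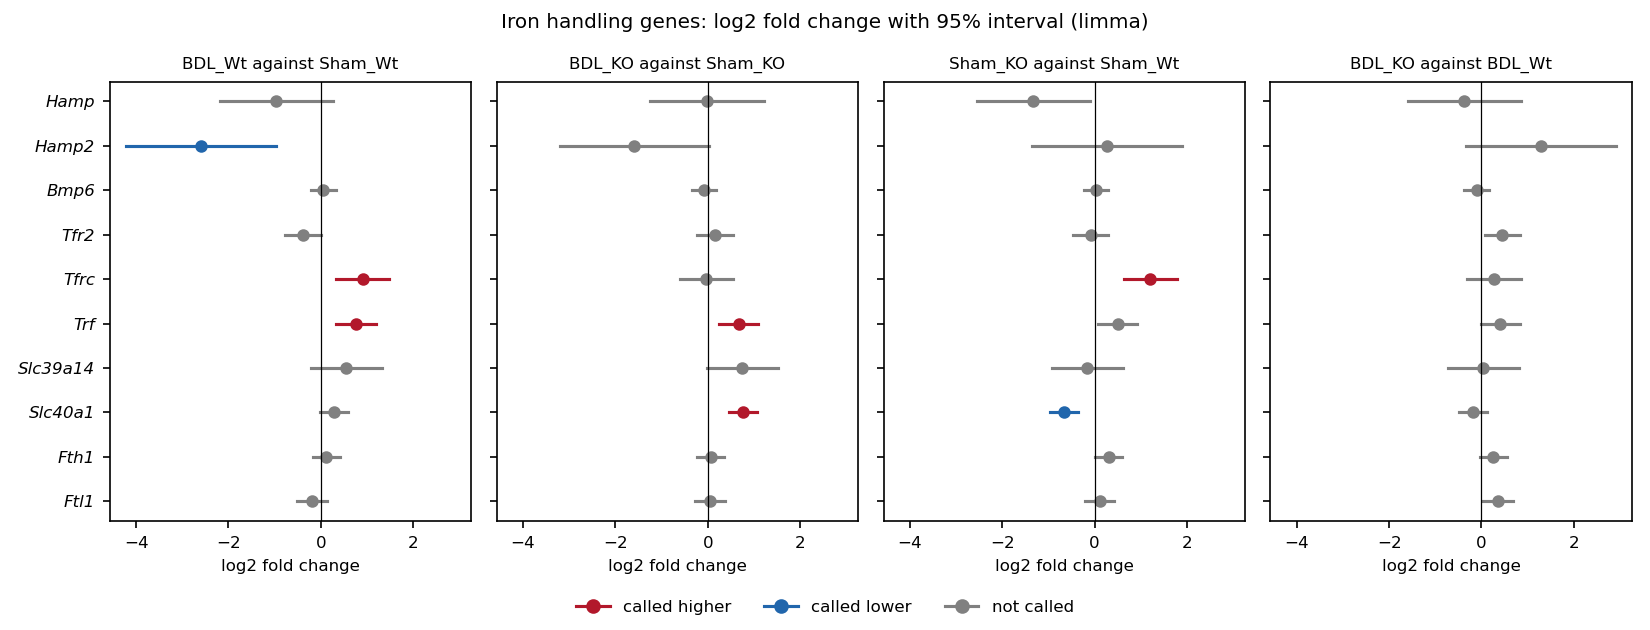
Log2 fold change (points) with 95% interval (lines) of the 10 genes in the 4 pairwise comparisons, from limma on log2(FPKM + 0.5); red and blue mark genes called higher and lower, grey those not called. Slc40a1 is called in both panels that involve Sham_KO, in opposite directions, and no gene is called in BDL_KO against BDL_Wt.

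Hamp, the hepcidin gene (chromosome 7, 30942368 to 30944032, minus strand), was highest in the sham wild-type livers. The 5 BDL_KO libraries had 2262, 1143, 4879, 1306 and 159.9 FPKM, and the BDL_Wt libraries 1647, 1804, 1052, 2359.2 and 1313 FPKM. The Sham_KO libraries had 1147, 966, 1134, 2186 and 1012 FPKM, and the Sham_Wt libraries 2715, 2613, 5194, 2764 and 2689 FPKM. Every Sham_KO and every BDL_Wt library lay below every Sham_Wt library, while BDL_KO spanned nearly the whole range of the study. Means ± SD were 1950 ± 1799 FPKM in BDL_KO, 1635 ± 499 in BDL_Wt, 1289 ± 508 in Sham_KO and 3195 ± 1119 in Sham_Wt livers (n = 5 each).

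The separation of Hamp did not pass the test in the joint fit, which pools the spread of all 4 groups. In Sham_KO against Sham_Wt the log2 fold change was -1.32 ± 0.59 (limma, adjusted p = 0.244), with a 95% interval of -2.55 to -0.10. Of all tested genes 4.58% had sham groups that did not overlap with the knockout lower, and 3.49% with the knockout higher. BDL_Wt against Sham_Wt gave -0.96 ± 0.59 (adjusted p = 0.217). Without library BDL_KO_2371, which held the lowest Hamp value, both differences were called at the same size, with adjusted p = 0.0479 for Sham_KO and 0.039 for BDL_Wt. Of 20 removals of 1 library, 1 gave a call for each difference. BDL_KO_2371 is in neither compared group. Its removal lowered the SE from 0.59 to 0.35 and left both differences unchanged, so these calls are no separate evidence. With the 2 compared groups alone in the fit both differences were called as well, at 0.0158 and 0.00939. Over all settings other than the removal of 1 library, the adjusted p ranged from 0.0158 to 0.832 for Sham_KO and from 0.00939 to 0.679 for BDL_Wt.

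Within the knockout, Hamp was not called after ligation. BDL_KO against Sham_KO gave -0.01 ± 0.59 (limma, adjusted p = 0.989), with an interval of -1.24 to 1.21 that allows a large change either way. The value moved with single libraries, and was 0.72 without BDL_KO_2371 (adjusted p = 0.175) and -0.98 without BDL_KO_2248 and BDL_KO_2359 (adjusted p = 0.149). BDL_KO against BDL_Wt gave -0.37 ± 0.59 (adjusted p = 0.748), 0.36 without BDL_KO_2371 (adjusted p = 0.615) and -1.34 without the pair BDL_KO_2248 and BDL_KO_2359 (adjusted p = 0.137). The interaction of ligation and knockout was 0.95 ± 0.83 (adjusted p = 0.698), and -0.02 without that pair.

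Hamp2, the second hepcidin gene of the mouse (chromosome 7, 30922372 to 30924681, minus strand), fell with ligation in wild-type livers. The BDL_KO libraries had 20.3, 8.13, 10.8, 12.8 and 8.25 FPKM, and the BDL_Wt libraries 6.16, 6.27, 1.52, 8.55 and 2.85 FPKM. The Sham_KO libraries had 19.0, 18.4, 13.9, 192 and 55.5 FPKM, and the Sham_Wt libraries 5.71, 7.58, 79.5, 89.0 and 60.7 FPKM. In both sham groups the values formed a low and a high set, and the high set was made of the libraries with Xist. BDL_Wt against Sham_Wt gave -2.59 ± 0.77 (limma, adjusted p = 0.0134), although the groups overlapped; with voom the call was lost (adjusted p = 0.0793).

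The drop of Hamp2 was called in one kind of library and not in the other, a difference that was not itself tested. Among libraries with Xist, BDL_Wt livers had 2.85 to 8.55 FPKM and Sham_Wt livers 60.7 to 89.0 FPKM, a log2 fold change of -3.79 (adjusted p = 0.0133). Among libraries with Y-linked transcripts, BDL_Wt livers had 1.52 to 6.27 FPKM and Sham_Wt livers 5.71 to 7.58 FPKM, a log2 fold change of -0.65 (adjusted p = 0.42). With library type as a term in the model, Hamp2 was called in both genotypes, at -2.29 in BDL_Wt against Sham_Wt (adjusted p = 0.00831) and at -1.89 in BDL_KO against Sham_KO (adjusted p = 0.0364). Without that term BDL_KO against Sham_KO was -1.59 ± 0.77 (adjusted p = 0.144). The type term itself, libraries with Xist minus libraries with Y-linked transcripts, was 1.5 on the log2 scale (adjusted p = 0.119), where 1.92% of genes were called for library type.

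Knockout left Hamp2 without a call in either surgery, at 0.28 ± 0.77 in Sham_KO against Sham_Wt (adjusted p = 0.899) and 1.28 ± 0.77 in BDL_KO against BDL_Wt (adjusted p = 0.33). Hamp2 made up 1.54 ± 1.90% of the summed FPKM of both hepcidin genes in BDL_KO, 0.288 ± 0.102% in BDL_Wt, 3.60 ± 2.97% in Sham_KO and 1.47 ± 1.25% in Sham_Wt livers (SD, n = 5 each). Their transcripts share 16.6% of the 50-base windows of Hamp and 16.2% of those of Hamp2, so part of the reads could be assigned to either gene. Hamp stood far higher, with Hamp2 at 0.144 to 0.372% of the sum in the BDL_Wt libraries. A small share of Hamp reads assigned to Hamp2 would therefore weigh most on the low Hamp2 values and their fold changes. No source used here tells how such reads were assigned.

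**Figure D3:**
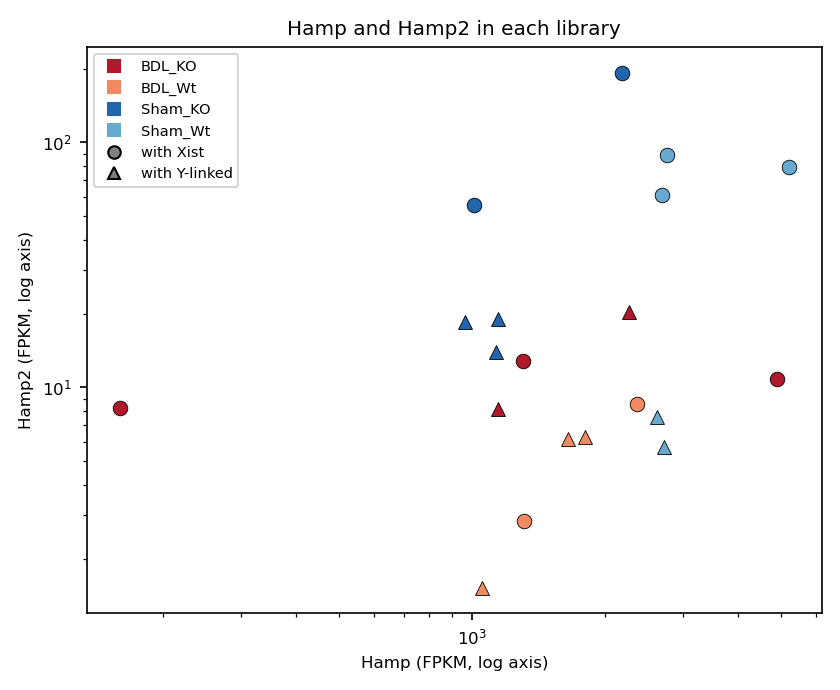
Hamp (x axis) and Hamp2 (y axis) in FPKM on log axes, 1 point per library, coloured by group and shaped by library type. The 5 sham libraries with Xist lie at 55.5 to 192 FPKM of Hamp2, all other libraries lie at 20.3 FPKM or less, and BDL_KO_2371 stands alone at the left with 159.9 FPKM of Hamp.

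Bmp6, the ligand that couples iron stores to hepcidin, stayed at 0.81 to 1.57 FPKM in all 20 libraries. It averaged 1.12 ± 0.139 FPKM in BDL_KO, 1.23 ± 0.128 in BDL_Wt, 1.22 ± 0.269 in Sham_KO and 1.19 ± 0.31 in Sham_Wt livers (SD, n = 5 each). The log2 fold changes of the 4 pairwise comparisons lay between -0.10 and 0.05, and their 95% intervals reached from -0.37 to 0.32. Bmp6 was 0.27 lower on the log2 scale in libraries with Xist (a type term of -0.27, adjusted p = 0.057). Summed sinusoidal endothelial markers, from the cells that make most liver BMP6, were 34.2 to 68.4 FPKM in BDL_KO, 28.6 to 44.1 FPKM in BDL_Wt, 71.8 to 96.6 FPKM in Sham_KO and 62.7 to 76.8 FPKM in Sham_Wt livers. Their part in the level of Bmp6 was not tested.

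Tfr2, the transferrin receptor of hepatocytes that senses iron-loaded transferrin and feeds into hepcidin control, was not called in any comparison. It averaged 145 ± 53.4 FPKM in BDL_KO, 101 ± 12.3 in BDL_Wt, 124 ± 15.9 in Sham_KO and 131 ± 7.29 in Sham_Wt livers (SD, n = 5 each). The 5 BDL_Wt libraries, at 87.9 to 115 FPKM, all lay below the 5 Sham_Wt libraries, at 121 to 141 FPKM. That difference was -0.38 ± 0.18 (limma, adjusted p = 0.114), and it was called with array weights (adjusted p = 0.0095), when the fit held BDL_Wt and Sham_Wt alone (0.00679), and without BDL_KO_2248 and BDL_KO_2359 (0.0116). It shrank to -0.06 with TPM (adjusted p = 0.692) and to -0.0034 with quantile normalization (adjusted p = 0.989). BDL_KO_2248 and BDL_KO_2359 held the 2 highest Tfr2 values, 219 and 180.2 FPKM. BDL_KO against BDL_Wt was 0.45 ± 0.18 (adjusted p = 0.13), 0.10 without that pair (adjusted p = 0.714), and 0.62 without BDL_KO_2365 (adjusted p = 0.0199).

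Tfrc, transferrin receptor 1, takes iron-loaded transferrin into cells, and its mRNA carries the 3′ UTR elements above. It rose with ligation in wild-type livers and was higher in Sham_KO than in Sham_Wt livers. The BDL_KO libraries had 10.1, 4.04, 4.42, 6.45 and 5.78 FPKM, and the BDL_Wt libraries 4.64, 4.47, 4.68, 5.33 and 4.70 FPKM. The Sham_KO libraries had 3.28, 3.68, 5.75, 10.2 and 10.3 FPKM, and the Sham_Wt libraries 3.58, 2.39, 2.10, 2.01 and 1.78 FPKM. Sham_Wt was the lowest group and did not overlap BDL_Wt, while Sham_KO reached down into its range. The log2 fold change was 0.90 ± 0.28 in BDL_Wt against Sham_Wt (limma, adjusted p = 0.015) and 1.21 ± 0.28 in Sham_KO against Sham_Wt (adjusted p = 0.0232). The difference between BDL_Wt and Sham_Wt was 1.16 among libraries with Xist (adjusted p = 0.0126) and 0.57, not called, among libraries with Y-linked transcripts (adjusted p = 0.272).

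Tfrc in BDL_KO against Sham_KO was -0.03 ± 0.28 (limma, adjusted p = 0.957), with an interval of -0.60 to 0.55, and in BDL_KO against BDL_Wt 0.27 ± 0.28 (adjusted p = 0.597). The interaction was -0.93 ± 0.39 (adjusted p = 0.317), so the 2 ligation effects were not shown to differ. BDL_KO against Sham_KO was -0.85 among libraries with Xist (limma, adjusted p = 0.0309) and 0.59 among libraries with Y-linked transcripts (adjusted p = 0.338). The interaction was -2.01 ± 0.23 among libraries with Xist (adjusted p = 0.181) and 0.02 ± 0.48 among libraries with Y-linked transcripts (adjusted p = 0.992). The rise in Sham_KO differed in size between the kinds of library, a difference that was not itself tested. Libraries with Xist had 10.2 and 10.3 FPKM in Sham_KO and 1.78 to 2.10 FPKM in Sham_Wt livers, a log2 fold change of 2.13 (adjusted p = 0.00686). Libraries with Y-linked transcripts had 3.28 to 5.75 FPKM in Sham_KO and 2.39 and 3.58 FPKM in Sham_Wt livers, a log2 fold change of 0.43 (adjusted p = 0.711). The call was also lost without any 1 of Sham_Wt_2227, Sham_Wt_2228, Sham_Wt_2229, Sham_KO_2352 and Sham_KO_2353, at adjusted p = 0.0579 to 0.0635, and with TPM (0.0743), no filter (0.0533) or Sham_KO and Sham_Wt alone in the fit (0.0515). Erythroid cells carry much of this receptor, and summed red cell markers were 174 to 332 FPKM in Sham_KO and 90.2 to 172 FPKM in Sham_Wt livers, with 0 of their 5 tested genes called and 2 at an unadjusted p under 0.05. Their part in the Tfrc result was not tested.

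Trf, transferrin, the iron carrier of plasma made by hepatocytes, rose with ligation in both genotypes. The BDL_KO libraries had 338, 238, 218, 306 and 517 FPKM, and the BDL_Wt libraries 254, 270.5, 203, 241 and 201.4 FPKM. The Sham_KO libraries had 229, 156, 178, 185 and 233 FPKM, and the Sham_Wt libraries 138, 99.2, 156, 128 and 175 FPKM. The wild-type groups did not overlap and the knockout groups overlapped at 218 to 233 FPKM. The log2 fold change was 0.76 ± 0.20 in BDL_Wt against Sham_Wt (limma, adjusted p = 0.00668) and 0.67 ± 0.20 in BDL_KO against Sham_KO (adjusted p = 0.0222). The second call was lost without BDL_KO_2371, which held the highest value (0.48, adjusted p = 0.0574), without Sham_KO_2349 (0.59, adjusted p = 0.0577), and with only those groups in the fit (adjusted p = 0.0916). The wild-type call was lost among libraries with Xist alone (0.54, adjusted p = 0.37).

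Trf in Sham_KO against Sham_Wt was 0.50 ± 0.20 (limma, adjusted p = 0.205) and in BDL_KO against BDL_Wt 0.41 ± 0.20 (adjusted p = 0.226). Most of the Trf transcript, 79.8% of its 50-base windows, is also annotated as the overlapping gene Gm20425, which was listed at 0 to 0.0426 FPKM. No source used here tells how reads on both genes were assigned, so the level of Trf may be too low and is not ranked among the others.

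Slc39a14, the ZIP14 importer of iron not bound to transferrin, was not called in any comparison. It averaged 45.1 ± 43.4 FPKM in BDL_KO, 34.4 ± 7.80 in BDL_Wt, 20.6 ± 3.54 in Sham_KO and 23.7 ± 7.41 in Sham_Wt livers (SD, n = 5 each). BDL_KO_2248 alone had 122 FPKM, and the other 4 BDL_KO libraries had 19.2 to 37.7 FPKM. Ligation gave 0.55 ± 0.37 in wild-type livers (limma, adjusted p = 0.262) and 0.75 ± 0.37 in knockout livers (adjusted p = 0.145). The wild-type value was 1.05 among libraries with Y-linked transcripts (adjusted p = 0.042) and 0.07 among libraries with Xist (adjusted p = 0.963), and it was called with TPM (0.88, adjusted p = 0.041) and with array weights (0.57, adjusted p = 0.0355). The knockout value was 0.11 without BDL_KO_2248 and BDL_KO_2359 (adjusted p = 0.758), a fit in which the wild-type difference was called at its unchanged size (adjusted p = 0.0412).

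Slc40a1, ferroportin, the exporter through which iron leaves cells and the target of hepcidin, was low in the sham knockout livers. The BDL_KO libraries had 20.2, 27.3, 27.2, 32.1 and 24.0 FPKM, and the BDL_Wt libraries 29.4, 27.9, 24.5, 34.4 and 32.1 FPKM. The Sham_KO libraries had 11.7, 14.2, 15.1, 16.9 and 17.7 FPKM, and the Sham_Wt libraries 17.6, 26.5, 27.8, 22.6 and 27.2 FPKM. Sham_KO lay wholly below both ligated groups and touched only the lowest Sham_Wt library. The log2 fold change was -0.66 ± 0.14 in Sham_KO against Sham_Wt (limma, adjusted p = 0.018) and 0.77 ± 0.14 in BDL_KO against Sham_KO (adjusted p = 0.000986).

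Slc40a1 in BDL_Wt against Sham_Wt was 0.29 ± 0.14 (limma, adjusted p = 0.132), called at 0.61 with TPM (adjusted p = 0.028), at 0.45 with quantile normalization (0.042) and at 0.34 with library type as a term (0.031), and in BDL_KO against BDL_Wt -0.19 ± 0.14 (adjusted p = 0.471). The interaction was 0.48 ± 0.21 (adjusted p = 0.331), so a different response to ligation was not shown. The lower Sham_KO level was no longer called without Sham_Wt_2227 (-0.61, adjusted p = 0.0593) or Sham_Wt_2229 (-0.62, adjusted p = 0.0518), nor with TPM (-0.82, adjusted p = 0.055). Within libraries with Xist it was -0.56 and within libraries with Y-linked transcripts -0.65, neither called in these small groups. Kupffer cells are rich in ferroportin, and their summed markers were 169 to 698 FPKM in BDL_KO, 494 to 747 FPKM in BDL_Wt, 164 to 268 FPKM in Sham_KO and 240 to 417 FPKM in Sham_Wt livers. Cd5l was called lower in Sham_KO against Sham_Wt, at -1.34 ± 0.36 (adjusted p = 0.0499), and higher in BDL_KO against Sham_KO, at 1.24 ± 0.36 (adjusted p = 0.0175). Of 8 tested Kupffer markers 1 was called lower in Sham_KO against Sham_Wt, where 1.66% of all genes were called lower. In BDL_KO against Sham_KO 3 of the 8 were called higher, where 12.3% of all genes were. The part of these markers in the Slc40a1 results was not tested.

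Fth1 and Ftl1, the heavy and light chains of the ferritin shell that stores iron, were not called in any comparison. Fth1 averaged 1796 ± 345 FPKM in BDL_KO, 1487 ± 172 in BDL_Wt, 1704 ± 272 in Sham_KO and 1365 ± 37.9 in Sham_Wt livers (SD, n = 5 each). All 5 Sham_KO libraries, at 1496 to 2136 FPKM, exceeded all 5 Sham_Wt libraries, at 1311 to 1408 FPKM, a log2 difference of 0.31 ± 0.14 (limma, adjusted p = 0.261). Ftl1 averaged 1064 ± 185 FPKM in BDL_KO, 822 ± 91.1 in BDL_Wt, 1027 ± 209 in Sham_KO and 940.1 ± 93.0 in Sham_Wt livers. Its largest difference was 0.36 ± 0.15 in BDL_KO against BDL_Wt (adjusted p = 0.149), called without BDL_KO_2248 (0.47, adjusted p = 0.0445) and -0.01 after quantile normalization.

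The ratio of Fth1 to Ftl1, both in FPKM, was 1.72 ± 0.36 in BDL_KO, 1.81 ± 0.132 in BDL_Wt, 1.68 ± 0.169 in Sham_KO and 1.46 ± 0.132 in Sham_Wt livers (SD, n = 5 each). All 5 BDL_Wt libraries, at 1.65 to 1.95, lay above all 5 Sham_Wt libraries, at 1.31 to 1.63. The nearest libraries were BDL_Wt_2240 at 1.646 and Sham_Wt_2223 at 1.629. The ratio was not tested, and 31.8% of single genes did not overlap in this comparison. These levels are per exon length of the whole gene, 3469 bases for Fth1 and 1340 for Ftl1, and the 2 chains need not be scaled alike. Of the 50-base windows of the Ftl1 transcript 73.4% are also in the pseudogene Ftl1-ps1, listed at 13.9 to 30.7 FPKM, so part of the Ftl1 reads could be assigned elsewhere.

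Per exon length, the overall order of the levels put Hamp and Fth1 first, with means over the 20 libraries of 2017 and 1588 FPKM, then Ftl1 with 963 FPKM. Hamp and Fth1 overlapped in every group but Sham_Wt, where Hamp, at 2613 FPKM or more, exceeded Fth1, at 1408 FPKM or less. Tfr2 followed with 125 FPKM, Hamp2, Slc39a14 and Slc40a1 with 31.4, 30.9 and 23.8 FPKM overlapping one another, Tfrc with 4.99 FPKM and Bmp6 with 1.19 FPKM. Hamp2 ranged over 126-fold and Hamp over 32.5-fold between libraries, Slc39a14 over 8.73-fold, Tfrc over 5.82-fold and Trf over 5.22-fold. Slc40a1, Tfr2, Bmp6, Ftl1 and Fth1 varied by 2.94-fold or less.

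The BMP and SMAD arm of hepcidin control, 22 tested genes, had calls in both directions. In BDL_Wt against Sham_Wt 3 were called higher and 5 lower, with a median log2 fold change of -0.01 beside -0.02 over all genes. These 8 of 22, and the 5 of 22 in knockout livers below, lie near the 35.6% and 25.1% of all genes called and are no result about the arm. The ligand Bmp2 averaged 2.12 FPKM in BDL_Wt and 4.66 in Sham_Wt livers (-0.99 ± 0.16, limma, adjusted p = 9.97e-05), without overlap. Of 10 sinusoidal endothelial markers, from cells that make BMP2, 7 were called lower and 0 higher in the same comparison (median -0.83). Of all genes 17.5% were called lower there. The part of these markers in the Bmp2 result was not tested. Tmprss6, the protease that cuts the BMP co-receptor hemojuvelin and so lowers hepcidin, averaged 106 and 170.4 FPKM in the same groups (-0.69). The SMAD genes Smad9 (-1.21) and Smad6 (-0.69) were called lower, while the stress hormone gene Gdf15 (2.20) and the receptor-binding Fkbp1a (0.74) were called higher.

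In BDL_KO against Sham_KO 3 genes of this arm were called higher and 2 lower. Fgl1, the gene of a secreted hepatocyte protein that antagonises BMP signals, averaged 303 FPKM in BDL_KO and 99.8 in Sham_KO livers (1.39). Fkbp1a (0.48) and Smad1 (0.38) were also higher, and Bmp2 (-0.46) and the receptor gene Acvr2a (-0.39) were lower. In BDL_KO against BDL_Wt, Bmp2 was higher (0.59) and Gdf15 (-1.93) and the receptor gene Bmpr1a (-0.40) were lower. These were 1 higher and 2 lower of 22, where 8.83% of all genes were called in either direction.

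In Sham_KO against Sham_Wt 1 of the 22 genes of the arm was called, near the 2.97% of all genes called and no result about the arm. Smad7, an inhibitory SMAD that BMP signals induce, averaged 2.77 ± 0.686 FPKM in Sham_KO and 6.26 ± 1.91 in Sham_Wt livers (-1.03 ± 0.26, limma, adjusted p = 0.0383), without overlap. Id1, another early BMP target, averaged 8.37 FPKM in Sham_KO and 17.5 in Sham_Wt livers without overlap (-1.12, adjusted p = 0.145). Atoh8 averaged 11.5 and 21.9 FPKM in those groups (-0.96, adjusted p = 0.0892). Hamp differed by -1.32 in the same libraries, and Bmp6 and Bmp2 were not called there.

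The IL-6 and STAT3 arm, 14 tested genes, rose in many members after ligation. Ligation in wild-type livers called 7 genes higher and 1 lower, where 18.1% of all genes were called higher and 17.5% lower. The median was 0.40 beside -0.02 over all genes. In knockout livers 8 were called higher and 1 lower, where 12.3% of all genes were called higher and 25.1% in either direction. The median there was 0.57 beside -0.01. The acute-phase genes Saa1, Saa2 and Orm2 had log2 fold changes of 4.76, 5.46 and 5.57 in BDL_Wt against Sham_Wt and of 5.43, 6.17 and 5.51 in BDL_KO against Sham_KO. Socs3, the feedback inhibitor that STAT3 induces, averaged 19.5 FPKM in BDL_KO and 3.52 in Sham_KO livers (1.82 ± 0.46, limma, adjusted p = 0.00751), and 15.8 FPKM in BDL_Wt and 4.21 in Sham_Wt livers (1.89 ± 0.46, adjusted p = 0.00341). BDL_KO_2248 alone had 57.4 FPKM of Socs3, and the other 4 BDL_KO libraries averaged 10.0 ± 4.40 FPKM (SD), still above every Sham_KO library at 5.24 to 13.9 FPKM against 2.48 to 4.64 FPKM. Il22ra1, a receptor gene, rose by 1.37 in knockout and 1.23 in wild-type livers, and Cebpa, a hepatocyte transcription factor that supports Hamp transcription, was called lower in both, at -0.77 and -0.93. BDL_KO against BDL_Wt called 2 of 14 lower, Il1b (-0.95) and Jak2 (-0.36), where 8.83% of all genes were called in either direction. Sham_KO against Sham_Wt called 1 of 14 lower, Jak2 (-0.34), where 2.97% of all genes were called, 1.66% lower. Il6 itself was at most 0.226 FPKM and was not tested.

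**Figure D4:**
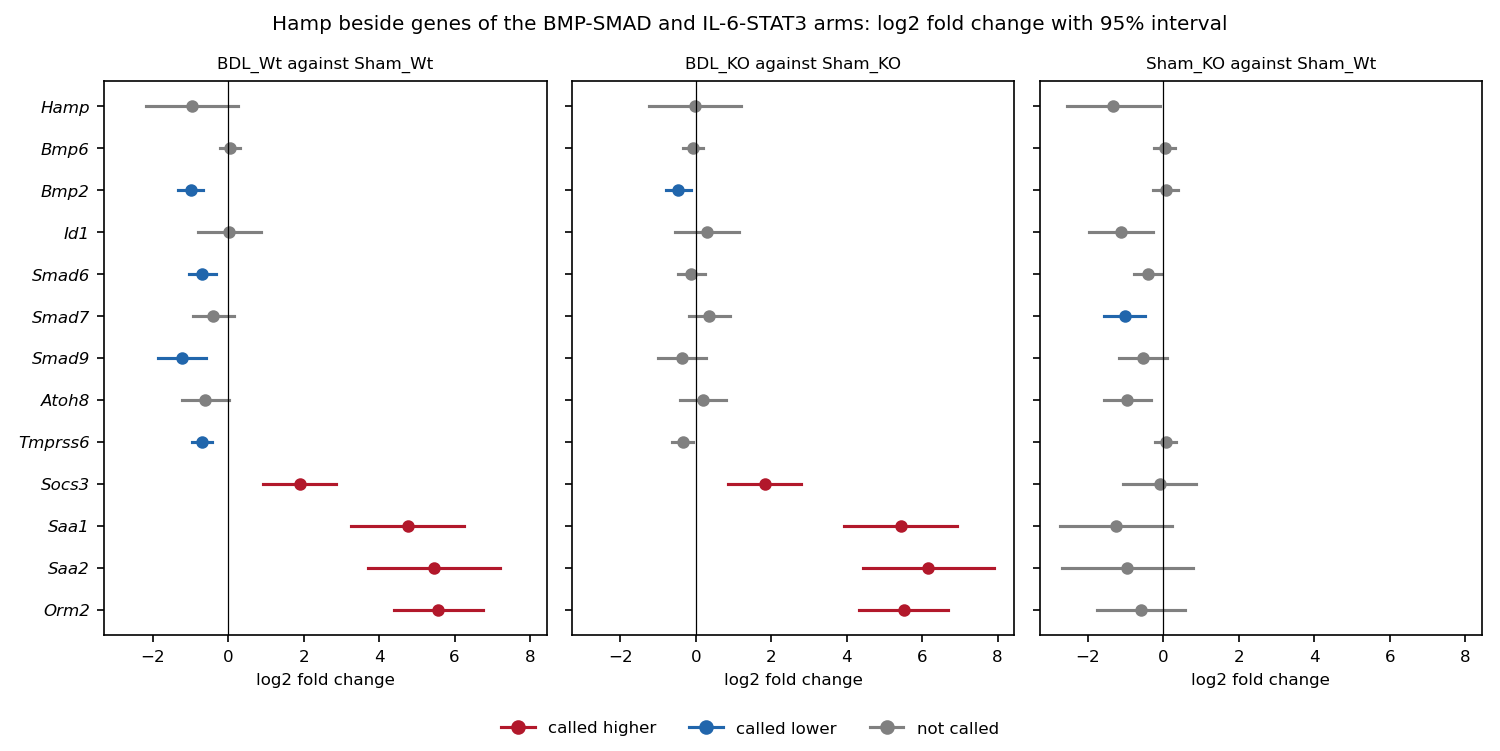
Log2 fold change (points) with 95% interval (lines) of Hamp and 12 genes of its BMP-SMAD and IL-6-STAT3 control arms in 3 comparisons on a shared axis, coloured by call. Socs3, Saa1, Saa2 and Orm2 are called higher in both ligation panels while Hamp is not, and in the sham panel Smad7 alone is called.

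Of 18 tested genes that carry or scavenge iron, copper and haem, 9 were called higher and 1 lower in BDL_KO against Sham_KO (median 0.67), where 12.3% of all genes were called higher. In BDL_Wt against Sham_Wt 12 were called higher and 2 lower (median 0.80), where 18.1% of all genes were called higher. Lcn2, which binds bacterial iron carriers, averaged 487 FPKM in BDL_KO and 3.25 in Sham_KO livers, and 992 FPKM in BDL_Wt and 11.1 in Sham_Wt livers (6.99 and 7.18). The haem and haemoglobin scavengers Hpx and Hp, the ferroxidase Cp and the ferrireductase Steap4 had log2 fold changes of 1.87, 2.10, 1.58 and 1.62 in knockout and of 1.40, 1.84, 1.86 and 2.82 in wild-type livers. Steap2, another ferrireductase, was called higher in both (1.01 in knockout, 0.89 in wild-type livers), and Scara5, a ferritin receptor, was called higher in the wild type (2.89) and not called in the knockout (1.13, adjusted p = 0.209), with an interaction that was not called either (adjusted p = 0.443). BDL_KO against BDL_Wt called 2 higher, Slc46a1 (0.73) and Slc39a8 (0.38), and 3 lower, Steap4 (-1.55), Slc11a1 (-0.81) and Cp (-0.59). Of all genes 8.83% were called there in either direction. Hpx was the 1 gene called in Sham_KO against Sham_Wt, at -0.73, with 2803 FPKM in Sham_KO and 4643 in Sham_Wt livers. In that comparison 2.97% of all genes were called.

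Among 10 tested genes of cytosolic iron sensing, ferritin turnover and haem breakdown, Hmox1 rose in both genotypes. This haem oxygenase, which frees iron from haem, averaged 39.7 FPKM in BDL_KO and 12.4 in Sham_KO livers (1.53 ± 0.25, limma, adjusted p = 0.000293), and 56.7 FPKM in BDL_Wt and 16.0 in Sham_Wt livers (1.79 ± 0.25). After wild-type ligation Blvrb (-0.68), a reductase of the haem breakdown path, and Ireb2 (-0.44), which encodes an iron regulatory protein, were lower, so that 1 of 10 was higher and 2 lower. Knockout ligation called 2 of 10 higher, Hmox1 and Fbxl5 (0.25), the iron-sensing ubiquitin ligase for that protein. Both counts lie near the 35.6% and 25.1% of all genes called and are no result about these genes as a list. Aco1, the gene of the other iron regulatory protein, was higher in BDL_KO than in BDL_Wt livers (0.45). This 1 of 10 lies near the 8.83% of all genes called. In Sham_KO against Sham_Wt 0 of 10 were called, where 2.97% of all genes were, with 1 at an unadjusted p under 0.05.

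The mitochondrial genes of iron-sulfur clusters and haem synthesis had calls in the lower direction after ligation. Of 16 tested, 9 were called lower and 0 higher in BDL_Wt against Sham_Wt (median -0.42), where 17.5% of all genes were called lower. In BDL_KO against Sham_KO 4 were called lower and 0 higher (median -0.24). Of all genes 25.1% were called there in either direction, and 48.8% of those calls were higher. As a number of calls, these 4 of 16 lie near that share. All 4 were lower, however, and the 25.1% includes 12.3% of all genes that were called higher. It is therefore not a like comparison, and whether the list differs from all genes was not tested. Cpox, coproporphyrinogen oxidase, averaged 14.8 FPKM in BDL_KO and 28.8 in Sham_KO livers (-0.99), and 12.4 FPKM in BDL_Wt and 28.6 in Sham_Wt livers (-1.20). The haem synthesis genes Alad (-0.83), Urod (-0.66) and Fech (-0.45) and the glutaredoxin gene Glrx5 (-0.54) were lower in the wild type, and Uros (-0.49) and Urod (-0.37) in the knockout. In BDL_KO against BDL_Wt 2 of 16 were called higher, among them Urod (0.44), where 8.83% of all genes were called in either direction. In Sham_KO against Sham_Wt 0 of 16 were called, where 2.97% of all genes were, with 1 at an unadjusted p under 0.05. Summed hepatocyte markers did not overlap between BDL_Wt and Sham_Wt livers and overlapped between BDL_KO and Sham_KO livers, as given above. Alb made up most of that sum, averaging 19064 FPKM in BDL_Wt and 35381 in Sham_Wt livers. Of the 10 markers 4 were called lower and 0 higher in BDL_Wt against Sham_Wt (median -0.45), where 17.5% of all genes were called lower. In BDL_KO against Sham_KO 3 were called lower and 0 higher (median -0.15), where 25.1% of all genes were called in either direction. The part of these markers in the results was not tested.

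Whether Hamp moved with related genes from library to library was examined on deviations from the group means of log2(FPKM + 0.5) over the 20 libraries. The 8 genes fixed as a family include Hamp2 and targets of the same signals, so they are not all regulators of Hamp. None passed the adjusted threshold over that family by permutation within groups. Pearson r was 0.65 with Id1 (permutation p = 0.0421, adjusted 0.112; Spearman rho 0.53, p = 0.036), 0.53 with Atoh8 (p = 0.0251, adjusted 0.101; rho 0.54, p = 0.0246) and 0.51 with Smad7 (p = 0.0694; rho 0.44, p = 0.0836) in permutation tests. It was 0.62 with Saa1 (permutation p = 0.187; rho 0.38, p = 0.125), 0.56 with Socs3 (p = 0.175; rho 0.03, p = 0.923) and 0.53 with Tfr2 (p = 0.229; rho 0.36, p = 0.196). Against Hamp2 it was 0.35 (permutation p = 0.00811, adjusted 0.0649; rho 0.50, p = 0.0104), and against Bmp6 -0.01 (p = 0.973; rho -0.06, p = 0.815).

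The relations moved with single libraries. Without the 2 libraries farthest from the median of the other gene, r was 0.51 with Id1, 0.44 with Atoh8, 0.31 with Smad7, 0.55 with Saa1, 0.44 with Tfr2, 0.30 with Hamp2 and -0.01 with Bmp6, and with Socs3 it turned to -0.23. Without BDL_KO_2371 alone, a removal chosen after seeing the data, r fell to 0.31 with Id1, 0.29 with Atoh8 and 0.30 with Smad7. Without BDL_KO_2248 and BDL_KO_2359, 4 of the 8 passed, Id1 (r = 0.82, adjusted permutation p = 0.022), Atoh8 (0.68, 0.0291), Smad7 (0.67, 0.0337) and Hamp2 (0.40, 0.022), while Tfr2 turned to -0.13. That pair stood apart in these same libraries by its low summed cholangiocyte markers, mostly Spp1, so its removal was not independent of the data either.

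As a description over the same 20 deviations, the genes most like a member were ranked among the 11072 tested genes that averaged 1 FPKM or more. For Hamp they were Krba1 (r = 0.87), Rgp1 (0.86), Rbm3 (0.86) and Chmp6 (0.85). For Hamp2 they were Atp6v0d2 (0.94), Cyp2c38 (0.92), Abcd2 (0.92) and Eci3 (0.90), and the libraries share the split by library type described above. For Tfrc they were S1pr1 (0.85), Med22 (0.83), Mmp19 (0.82) and Rnf43 (0.79).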

How the data were processed

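Polyadenylated liver RNA from 20 mouse libraries was analysed, grouped by the sample titles. The deposited values are FPKM per gene, made by the authors; the submitters' processing notes name featureCounts 1.5.0-p3, HISAT2 2.0.5, DESeq2 1.20.0, CASAVA 1.8 and fastp, besides the builds mm10 and GRCm38, without roles or order. No source used here names an annotation release. Low FPKM values were whole multiples of 1 fragment for 97.9 to 98.4% of values per library (tolerance 0.02) with GENCODE M21 exon lengths, which gave the depth.

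The 14059 genes that reached 0.5 FPKM in 5 or more of the 20 libraries were tested on log2(FPKM + 0.5) with limma 3.58.1 in R 4.3.3, in 1 model with a mean per group, trend and robust moderation, and Benjamini-Hochberg adjustment. This scale understates changes of low genes. Python 3.11.15, pandas 2.3.3, numpy 2.4.6, scipy 1.17.1, matplotlib 3.10.9 and Biopython 1.88 read tables, permuted deviations within groups 100000 times and drew figures. The fit was checked on simulated data. Nothing says that libraries came from separate animals, so p-values measure the spread between libraries. Members and gene lists were chosen with earlier results of these data known. All members are named, of each other list up to 6 called genes per comparison by size, and the 4 genes most like Hamp, Hamp2 and Tfrc; Id1, Atoh8, Smad7, Saa1 and Socs3 were named as relations to Hamp. Alternatives were other pseudocounts, filters, scalings, weights, library sets and voom. The series design also names mice lacking Abcb4, not analysed here. Hjv is listed as Hfe2. A gene that the rule would name is counted in its list but not reported here.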

Additional observations from a re-analysis of the deposited data

Results flagged for a closer look

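In 6 of 40 groups of 5 libraries (10 genes in 4 groups), 1 library lay far from the other 4 relative to the range of its group. Chance flags 5% of groups. Hamp had 2186 FPKM in Sham_KO_2352, where the other Sham_KO libraries had at most 1147 FPKM. Hamp had 5194 FPKM in Sham_Wt_2227, where the other Sham_Wt libraries had at most 2764 FPKM. Hamp2 had 192 FPKM in Sham_KO_2352, the same library. Tfrc had 5.33 FPKM and Fth1 had 1783 FPKM in BDL_Wt_2237. Slc39a14 had 122 FPKM in BDL_KO_2248, which also held the highest Tfr2 of the study.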

How the results depend on the processing

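Called members were 3, 2, 2, 0 and 0 of 10 in BDL_Wt against Sham_Wt, BDL_KO against Sham_KO, Sham_KO against Sham_Wt, BDL_KO against BDL_Wt and the interaction; leaving out 1 library gave 3 to 4, 1 to 2, 0 to 3, 0 to 1 and 0. All called genes numbered 5011, 3534, 418, 1241 and 53, and 4279 to 5466, 2614 to 4096, 155 to 659, 618 to 2061 and 8 to 151 with 1 library left out. Members called in BDL_Wt against Sham_Wt were 6 with TPM, 5 with quantile normalization, 7 with array weights, 5 with only the groups compared and 5 without BDL_KO_2248 and BDL_KO_2359. In BDL_KO against Sham_KO they were 1 with only the groups compared and 0 with Y-linked libraries alone. In Sham_KO against Sham_Wt they were 1 with no filter, 0 with TPM, 1 with Xist libraries alone and 0 with Y-linked libraries alone. All called genes were 911 (BDL_Wt against Sham_Wt), 550 (BDL_KO against Sham_KO), 7 (Sham_KO against Sham_Wt), 8 (BDL_KO against BDL_Wt) and 0 (interaction) with Xist libraries alone, and 3126, 1072, 0, 308 and 2 with Y-linked libraries alone, where fewer libraries entered. With only the groups compared they were 1694, 821 and 283 in BDL_KO against Sham_KO, Sham_KO against Sham_Wt and BDL_KO against BDL_Wt. In Sham_KO against Sham_Wt they were 208 with no filter, 210 with TPM, 1234 with array weights and 1041 without BDL_KO_2248 and BDL_KO_2359. The interaction gave 9, 7, 142 and 178 under these 4 settings and 22 with voom. Relations of Hamp that passed were 0, and 4 without that pair of libraries.

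TPM moved the median of all genes from that of the fit on FPKM by 0.29, 0.16, -0.13 and -0.27 in the 4 pairwise comparisons, and the share of calls that were higher was 82.0, 75.9, 9.52 and 6.73% with TPM beside 50.8, 48.8, 44.0 and 39.2%. Signs turned for differences that were not called. Hamp in BDL_KO against Sham_KO was 0.17 with TPM, 0.056 with quantile normalization, 0.58 with Y-linked libraries alone and 0.026 with voom, and -0.52 to 0.72 with 1 library left out. Tfrc there was 0.15 with TPM and 0.59 with Y-linked libraries alone, -0.22 to 0.16 with 1 library left out, and called at -0.85 with Xist libraries alone (adjusted p = 0.0309). Hamp2 in Sham_KO against Sham_Wt was -0.039 with array weights and -0.33 to 0.68 with 1 library left out. Hamp in BDL_KO against BDL_Wt was 0.14 with Y-linked libraries alone and -0.88 to 0.36 with 1 library left out. Ftl1 there was -0.0094 with quantile normalization, the interaction for Hamp was -0.018 without BDL_KO_2248 and BDL_KO_2359, and that for Tfrc 0.0199 with Y-linked libraries alone. The relation to Socs3 was -0.23 without the 2 farthest libraries and that to Tfr2 -0.13 without the pair. Except where a setting itself removes genes or libraries, the cause was not tested. No paired analysis was possible because the groups share no replicate numbers. Hamp2 and Bmp6 at about 1 to 8 FPKM are limited by depth.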
